A study of Mus musculus with 8 samples.

Results

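This report describes 10 genes that cells use to divide, measured in mouse dorsal skin after 1 week on a diet with collagen hydrolysate or on the control diet. They are the kinases Aurka, Aurkb, Bub1, Bub1b and Plk1, the cyclin Ccnb2, the centromere histone Cenpa, the spindle factor Tpx2, the topoisomerase Top2a and the proliferation antigen Mki67. Each gene was taken with every probe set to which the platform annotation gives its symbol alone, 22 probe sets in all, and the probe set with the highest mean over the 8 arrays stood for the gene, as it did for each of the 18193 genes measured. The 10 genes were put together with earlier results of these data in view, among them the direction of the difference between diets for 7 of them, so that direction is given below as a description.

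The collagen group (4 arrays) came from hairless female mice of the Hos:HR-1 strain fed AIN-93G, a purified rodent diet, with 2 g of fish scale collagen hydrolysate (collagen cut into peptides) added per 100 g. The control group (4 arrays) came from mice of the same strain and sex on AIN-93G alone. Mice started the diets at 9 weeks and were 10 weeks old at sampling, with 8 mice assigned to each diet and 4 housed in a cage. The titles call the arrays of a diet biological replicates, but the sources used here do not tie an array to a mouse or cage, so the p-values measure the spread between these arrays. All mice carry the hairless background, and whole powdered skin can hold epidermis, hair follicles, dermis, fat and muscle together. A lower value in such tissue cannot tell fewer dividing cells from less RNA per cell.

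These genes act in the last part of the cell cycle. Plk1, Aurka and Aurkb phosphorylate the proteins that build the spindle and attach chromosomes to it, Bub1 and Bub1b hold back chromosome separation until every chromosome is attached, and Ccnb2 is a partner of the kinase that starts mitosis. Their transcripts are low in resting cells and build up together before division, through repressor and activator complexes that bind a short promoter element named the cell cycle genes homology region (CHR) and CCAAT boxes near it. In skin in general, dividing cells lie mainly in the basal layer of the epidermis and in the growing hair follicle. How much growing follicle the skin of these hairless mice held is not known here.

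Values are on the deposited log2 scale, on which arrays differed very little. Of the 45037 probe sets, the median one ranged by 7.36 millionths of 1 log2 unit over the 8 arrays, and the 10 main probe sets ranged by between 10.1 (Aurka) and 368 (Plk1) millionths. The steps behind these values are unknown here, and differences are therefore not turned into fold changes. Array values are given as deviations from the gene's 8-array mean in millionths of 1 log2 unit. Levels of different probe sets are not amounts of RNA that can be set against each other. Precision is limited by having 4 arrays a diet. The array medians lay between 8.1929 and 8.1932, with the lowest in the array collagen 1, which was also the array where all 10 main probe sets were lowest. The epidermal markers Krt10 (14.39) and Krt1 (13.63) and the fibroblast marker Pdgfra (11.69) had high mean levels, so markers of the labelled dorsal skin were present.

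The promoters are shown because the CHR is the element that mitotic genes are known to share. Whether it bears on how the 10 genes varied over these arrays was not tested. Promoter sequences from RefSeq (build GRCm38.p6, 250 bases before and 50 after an annotated start) were matched by symbol for 8 of the 10 genes, all but Aurkb and Tpx2. The usual CHR core, TTTGAA, was searched on both strands. A variant of the core that reads the same on both strands, TTCGAA, was searched as well, and so was the box CCAAT on both strands. TTTGAA was found in 7 of the 8 and the variant in Bub1, Bub1b and Top2a, so that each of the 8 held a CHR core. The 30 bases around the CHR core nearest to the start are given below, 5′ to 3′ on the gene's strand, with the core in capitals. In Top2a the core is on the opposite strand, so its letters appear there as TTCAAA.
Aurka (chr2:172370521-172370550, minus strand): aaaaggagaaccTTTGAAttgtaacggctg
Bub1 (chr2:127831828-127831857, minus strand): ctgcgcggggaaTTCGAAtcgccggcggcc
Bub1b (chr2:118598231-118598260, plus strand): ctgcgtcaagagacgttaaaTTTGAAactt
Plk1 (chr7:122159453-122159482, plus strand): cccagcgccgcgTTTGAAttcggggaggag
Ccnb2 (chr9:70421533-70421562, minus strand): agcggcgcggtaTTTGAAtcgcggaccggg
Cenpa (chr5:30666890-30666919, plus strand): ggcgggtgatttTTTGAActgctggcgacc
Top2a (chr11:99024195-99024224, minus strand): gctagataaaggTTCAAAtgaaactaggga
Mki67 (chr7:135716460-135716489, minus strand): ccgccgttttggTTTGAAtcgggcgggctg

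The core began at position 5 in Ccnb2, and at positions 15 (Bub1), 17 (Cenpa), 31 (Plk1), 33 (Aurka) and 41 (Bub1b), counted from 1 at the annotated start. In Top2a and Mki67 it began upstream, at positions -23 and -98. TTTGAA occurs on either strand in 17.9% of all 32851 promoters of this length, TTCGAA in 1.56%, and one or the other in 19.2%. Counted per gene, 8 of 8 members, 39 of 60 other mitosis genes (65%) and 4 of 21 DNA replication genes (19.05%) held a CHR core, beside 21.7% of all 27025 genes with a promoter. CCAAT was found in all 8 members, 36 of 60 other mitosis genes (60%) and 15 of 21 DNA replication genes (71.4%), beside 41.1% of all genes, and in 37.4% of all promoters. A match is a run of letters and not a shown binding site.

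Ccnb2 and Top2a are given with their 250 bases before the start because they show how CCAAT boxes repeat in this group. Capitals mark CCAAT. Where the box lies on the opposite strand they read ATTGG. The CCAAT boxes of Ccnb2 begin at -87, -54 and -21, each 33 bases after the one before, and Top2a has 6 of them.
Ccnb2 (chr9:70421555-70421804, minus strand): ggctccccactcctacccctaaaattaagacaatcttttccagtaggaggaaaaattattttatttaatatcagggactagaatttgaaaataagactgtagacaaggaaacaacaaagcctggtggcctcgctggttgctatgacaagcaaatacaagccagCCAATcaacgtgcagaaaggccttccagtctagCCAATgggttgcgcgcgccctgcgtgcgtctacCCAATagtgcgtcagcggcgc
Top2a (chr11:99024190-99024439, minus strand): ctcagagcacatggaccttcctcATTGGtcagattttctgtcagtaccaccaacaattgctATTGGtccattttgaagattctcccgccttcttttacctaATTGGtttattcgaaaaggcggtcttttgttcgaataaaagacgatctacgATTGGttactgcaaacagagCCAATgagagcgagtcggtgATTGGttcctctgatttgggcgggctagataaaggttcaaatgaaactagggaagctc

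All 10 main probe sets had their lowest value in the same mouse skin sample, the array collagen 1, where 17.6% of all 18193 genes had theirs. With that array included, 7 genes had a lower and 3 a higher mean in collagen-fed mice, beside 47.1% of all genes lower. Without collagen 1, 1 was lower and 9 were higher, beside 47.4% of all genes lower. Since collagen 1 was lowest in all 10, leaving it out raises each collagen mean by construction, so this count is no separate result. Without collagen 2, 7 were lower, beside 46% of all genes. After quantile normalization 3 of 10 were lower, beside 34.4% of all genes. Of these 3, Plk1 differed by only -0.0486 millionths, and Mki67, not among them, took the same value on all arrays. The array medians differed by -55.2 millionths between diets, more than any of the 7 differences. Median centring takes this off every gene alike, so that 0 of 10 were lower after it by construction, beside 5.38% of all genes. No gene was separated from the spread between arrays: 0 of the 10 passed limma's moderated test at adjusted p under 0.05, as did 0% of the 45037 probe sets. At an unadjusted p under 0.05 there were also 0 of the 10 (p from 0.232 to 0.836), beside 3.55% of all probe sets and 3.62% of the main probe sets of all genes. The diets overlapped in all 10, and did not overlap in 2.02% of all genes.

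**Figure D1:**
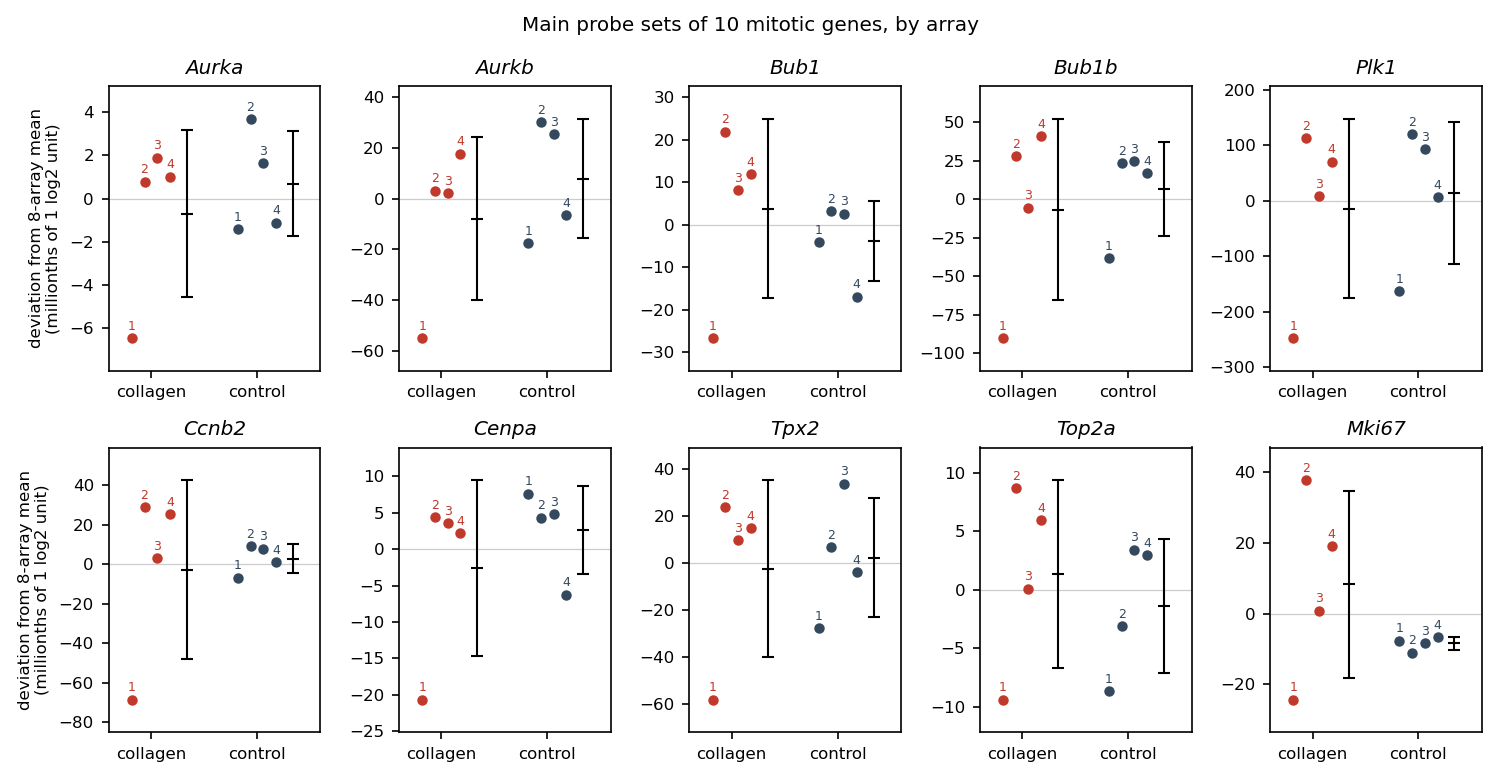
Each panel plots 1 gene's main probe set as the deviation of each array from the 8-array mean (vertical axis, millionths of 1 log2 unit), with the 4 collagen arrays left of the 4 control arrays, numbers naming the replicate, and a bar for the mean ± SD of each diet. Collagen 1 is the lowest point in all 10 panels, the other 3 collagen arrays lie among or above the control arrays, and in Mki67 the control arrays lie within 5 millionths of each other; 4 of the 7 genes with a lower collagen mean change sign after quantile normalization.

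Plk1, the polo-like kinase that drives the cell through each step of mitosis, had the widest range of the 10 (level 8.43). Its deviations were -247, 113, 7.98 and 70.2 millionths in collagen 1 to 4, against -164, 120, 93.0 and 6.11 millionths in control 1 to 4. Collagen 1 and control 1 were low and the other 6 arrays lay above the mean, so that the first replicate of each diet stood apart in the same direction. The diets differed by -27.9 ± 98.9 (limma SE, n = 4 arrays a diet), or -0.192 within-diet SD. With 1 array left out the difference ran from -87.1 (without control 1) to 49.9 (without collagen 1).

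Aurkb, the kinase of the chromosomal passenger complex that corrects faulty attachments, was measured by a probe set of the x type, which may also bind related transcripts (level 8.32). It deviated by -55.0, 3.13, 2.32 and 17.7 millionths in collagen 1 to 4, against -17.6, 30.2, 25.6 and -6.40 millionths in control 1 to 4. Control 2 and control 3 were the highest, and collagen 1 lay far under all other arrays. The difference was -15.9 ± 19.1 millionths, and with 1 array left out ran from -24.4 (without collagen 4) to -0.21 (without collagen 1). After quantile normalization it was 42.7.

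Aurka, the related kinase that matures centrosomes and builds spindle poles, had the smallest range (level 8.49). Its values were -6.46, 0.783, 1.89 and 1.01 millionths in collagen 1 to 4, and -1.43, 3.69, 1.63 and -1.11 millionths in control 1 to 4. Apart from collagen 1, the collagen arrays lay within the range of the control arrays. The difference was -1.39 ± 2.20 millionths, and with 1 array left out ran from -2.25 (without collagen 3) to 0.534 (without collagen 1).

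Tpx2 is the spindle protein that activates Aurka on microtubules (level 8.26). Tpx2 deviated by -58.1, 24.0, 9.67 and 15.05 millionths in collagen 1 to 4, against -27.6, 6.89, 33.9 and -3.82 millionths in control 1 to 4. As for Plk1, the 2 lowest arrays were collagen 1 and control 1. The difference of -4.71 ± 21.8 millionths was the smallest of the 10 in units of SD (-0.146), and with 1 array left out ran from -14.7 (without control 1) to 13.9 (without collagen 1), with 5.81 without control 3.

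Bub1b, which encodes the checkpoint protein BubR1 that inhibits the anaphase-promoting complex, had values of -90.2, 27.9, -5.49 and 40.9 millionths in collagen 1 to 4, against -38.4, 23.3, 24.9 and 17.1 millionths in control 1 to 4 (level 8.81). Collagen 4 was the highest and collagen 1 the lowest of all arrays, so that the collagen group spanned the control group. The difference was -13.5 ± 31.8 millionths, and with 1 array left out ran from -29.3 (without collagen 4) to 14.4 (without collagen 1).

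Bub1, the checkpoint kinase that marks the centromere, was 1 of 3 genes with a higher mean in collagen-fed mice (level 8.80). Its values were -26.6, 21.8, 8.07 and 11.9 millionths in collagen 1 to 4, and -4.13, 3.22, 2.63 and -16.9 millionths in control 1 to 4. Collagen 2, 3 and 4 lay above all 4 control arrays, and collagen 1 lay under them. The difference was 7.59 ± 11.1 millionths with all arrays. With 1 array left out it ran from 1.58 (without collagen 2) to 17.7 (without collagen 1), and it was 3.225 without control 4.

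Ccnb2, the B-type cyclin, had deviations of -68.5, 28.9, 2.96 and 25.2 millionths in collagen 1 to 4, against -6.80, 9.24, 7.78 and 1.16 millionths in control 1 to 4 (level 9.80). The control arrays were close together and the collagen arrays lay on both sides of them, with an SD of 45.2 millionths in the collagen group and 7.33 in the control group. The difference was -5.69 ± 21.99 millionths, and with 1 array left out ran from -16.3 (without collagen 2) to 16.2 (without collagen 1).

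Cenpa is the histone H3 variant that marks the centromere (level 10.08). Its values were -20.7, 4.39, 3.57 and 2.21 millionths in collagen 1 to 4, and 7.61, 4.33, 4.76 and -6.24 millionths in control 1 to 4. Control 1, which was low for most of the group, was the highest array for Cenpa. The difference was -5.24 ± 6.48 millionths, and with 1 array left out ran from -8.19 (without control 4) to 0.778 (without collagen 1).

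Top2a, the topoisomerase that untangles sister chromosomes, had values of -9.38, 8.72, 0.0875 and 5.97 millionths in collagen 1 to 4, against -8.69, -3.10, 3.44 and 2.97 millionths in control 1 to 4 (level 10.51). Collagen 1 and control 1 were again the lowest arrays, and they lay within 1 millionth of each other. The difference was 2.695 ± 4.73 millionths, and with 1 array left out ran from 0.238 (without collagen 2) to 6.27 (without collagen 1), with 0.247 without control 1.

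Mki67, the antigen used to stain dividing cells in tissue, had the largest difference in units of SD (0.894) and was higher in collagen-fed mice (level 11.03). It deviated by -24.3, 37.8, 0.904 and 19.2 millionths in collagen 1 to 4, against -7.57, -11.0, -8.29 and -6.67 millionths in control 1 to 4. The 4 control arrays were nearly equal (SD 1.88 millionths), whereas the collagen group had an SD of 26.5, with 3 arrays above the control arrays and collagen 1 under them. The difference was 16.8 ± 12.7 millionths, and with 1 array left out ran from 6.98 (without collagen 2) to 27.7 (without collagen 1).

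The spread within the collagen group exceeded that within the control group in all 10 genes, which was the case in 55.9% of all genes. Collagen 1 was the lowest array in all 10, so this count is not separate from its low values. The highest collagen array lay above the highest control array in 5 of the 10. In Plk1, Aurkb, Aurka, Tpx2 and Cenpa the collagen arrays other than collagen 1 lay within the range of the control arrays. With collagen 1 left out the diets did not overlap in 2 of the 10, Bub1 and Mki67, beside 3.92% of all genes. The same 2 were then at an unadjusted p under 0.05 by limma, beside 3.33% of all genes, with an adjusted p of 1 for both. Removing the array that was lowest in all 10 raises their collagen means by construction, so these shares of all genes are no like comparison. An exact permutation test over the 70 ways to assign 8 arrays to the diets gave unadjusted p from 0.314 to 0.943 for the 10 genes with all arrays, where 0.0286 is the smallest p it can give.

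**Figure D2:**
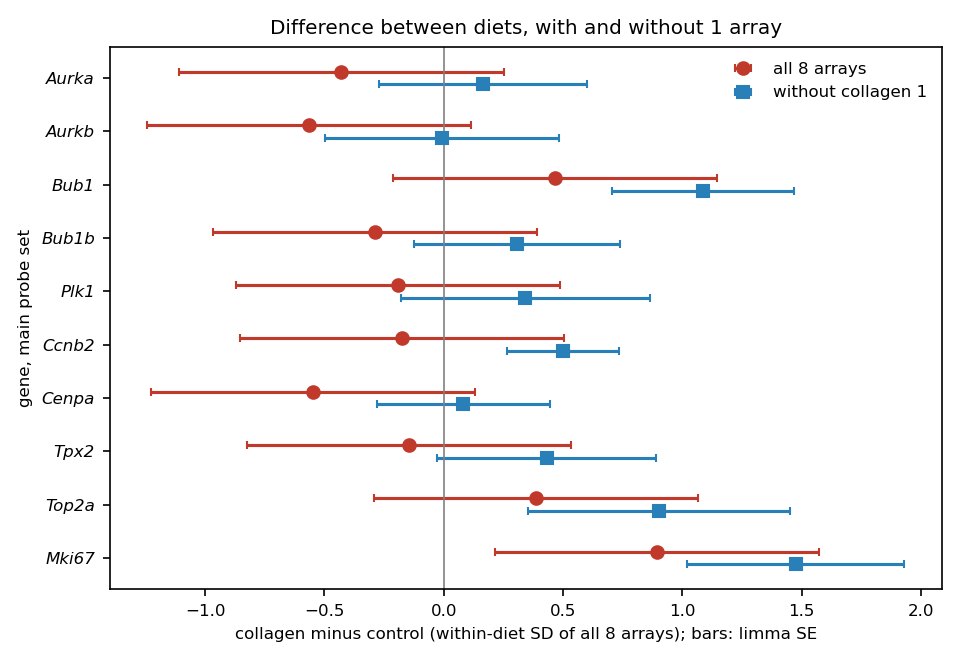
The horizontal axis gives collagen minus control for each main probe set in within-diet SD of all 8 arrays, with limma's SE as bars, for all 8 arrays (circles) and without collagen 1 (squares). Collagen 1 is the lowest collagen array in all 10, so leaving it out raises all 10 differences by construction, and 6 of them change sign. Of the 7 that were lower with all arrays, 4 change sign after quantile normalization; median centring shifts every gene alike by more than these differences.

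The readings of RNA quality that the arrays carry are given here for the same arrays. The array carries control probe sets at the 3′ and 5′ ends of Gapdh, and a larger 3′ minus 5′ difference is what shortened RNA gives, though its part in the low values was not tested. It deviated from its mean by 495, -60.1, -6.13 and 28.7 millionths in collagen 1 to 4, against 327, -235, -242 and -308 millionths in control 1 to 4. The 2 highest arrays, collagen 1 and control 1, are the 2 in which Plk1, Aurkb, Aurka, Bub1b, Ccnb2, Tpx2 and Top2a were lowest. With this reading as a covariate, 1 of the 10 genes (Cenpa) was lower with collagen and 0 passed at adjusted p under 0.05 by limma. The share of all genes lower in that setting was not counted, so the 1 of 10 cannot be called particular to these genes. For beta-actin the same reading varied by only a few millionths, with 1.05 in collagen 1 and 0.973 in collagen 2 as its highest values.

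The 10 genes varied together over the arrays. Over the 45 pairs of main probe sets, Pearson's r across the 8 arrays had a median of 0.801 and ran from 0.380 (Aurkb and Mki67) to 0.955 (Aurka and Aurkb), and Spearman's rho had a median of 0.619. An r over 0.7 was reached by 33 pairs (73.3%), against 5.54% of all pairs of the genes at or above the median level (8.193), whose median r was 0.00922. No p is given for the pairs, since the direction of the difference between diets, which was known when the genes were put together, rests on the same low array. Centring each gene on its diet means first gave a median r of 0.851. This step keeps collagen 1 far under the rest of its group, so it cannot show a likeness apart from that array.

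The likeness was weaker without the lowest array. Without collagen 1 the median r was 0.499, with 18 pairs over 0.7, and without the 2 arrays farthest from the median of each pair's first gene it was 0.576. After quantile normalization 1 of the genes, Mki67, took the same value on all arrays, which left 36 pairs to compare. The median r of these pairs was 0.164. After median centring, which adds the same offset to each gene of an array, it was 0.981.

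The closest pair was Aurka and Aurkb, with r = 0.955 (rho = 0.857), and r = 0.863 without collagen 1 or 0.791 without its 2 farthest arrays. Bub1b and Plk1 had r = 0.953 (rho = 0.762) and r = 0.904 without that array, the highest of the 45 pairs then, or 0.618 without its 2 farthest arrays. Ccnb2 and Mki67 had r = 0.756 (rho = 0.619), and r = 0.859 without it or 0.75 without its 2 farthest arrays. Cenpa was less like the group then: without collagen 1 its r was -0.362 with Bub1b, -0.142 with Plk1 and -0.376 with Top2a, and 0.539 with Bub1.

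**Figure D3:**
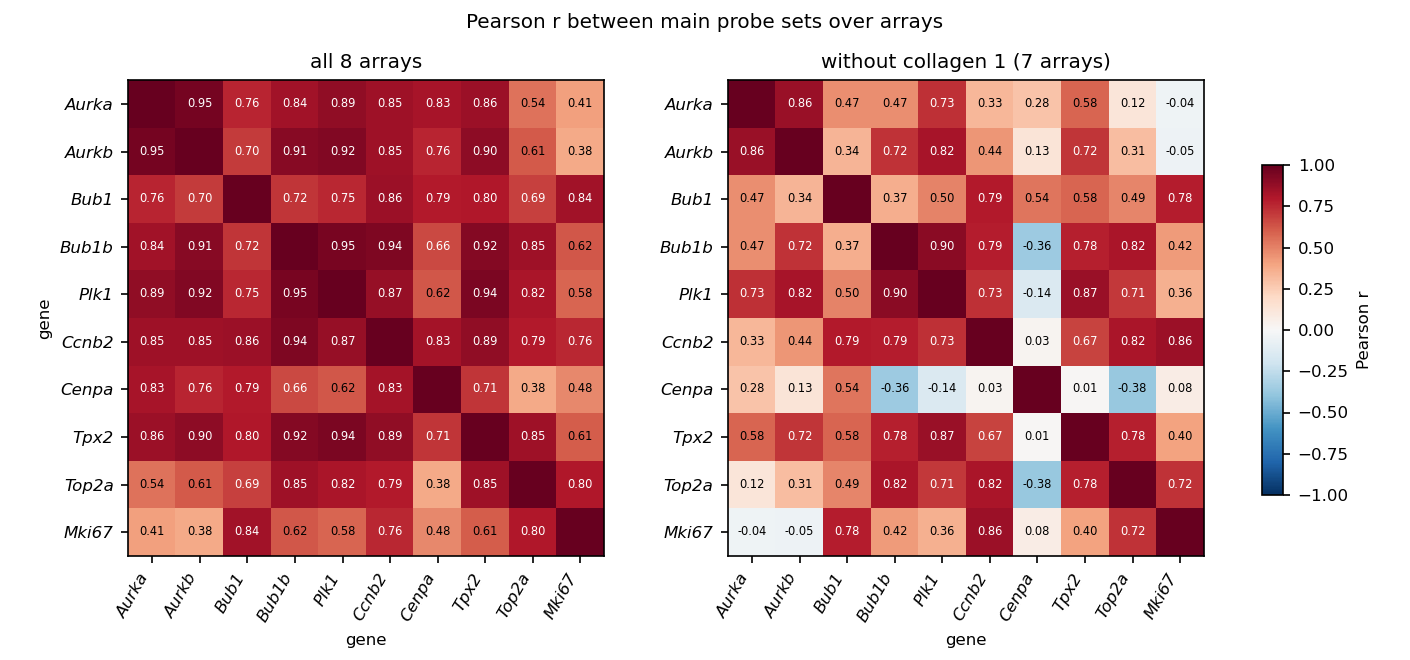
Each cell gives Pearson's r between the main probe sets named on both axes, over all 8 arrays on the left and over the 7 arrays without collagen 1 on the right, with red for positive and blue for negative values. All 45 pairs are positive on the left (0.380 to 0.955), while on the right the median is 0.499 and the row of Cenpa lies near or under 0 with most genes; after quantile normalization of all 8 arrays the median is 0.164.

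Other probe sets of the same genes followed the main one in some cases only. Plk1, Ccnb2 and Mki67 have 1 probe set each, and the other 7 genes have 12 further ones. Of these, 3 lay at or above the median level of all probe sets, as all 10 main ones did. The brighter second Bub1b probe set (level 8.64) had r = 0.886 with the main one (rho = 0.905, exact permutation p = 0.00357, adjusted p = 0.0429 over 12 comparisons; r = 0.548 without its 2 farthest arrays) and was also lowest in collagen 1. The second Top2a probe set (level 8.82) had r = 0.747 (rho = 0.595, exact permutation p = 0.0260, adjusted p = 0.104). It was lowest in control 1 (-15.6 millionths), with collagen 1 at -2.19.

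The second Tpx2 probe set (level 8.20) had r = -0.137 with the main one and ranged by 2.80 millionths, against 92.0 for the main one. Collagen 1 lay above its mean there, at 0.3865 millionths. Among the 9 probe sets under the median level the median r was -0.223. Aurkb (level 7.87, r = 0.755) and Bub1 (7.60, r = 0.656) followed their main probe set there, while the 7 others, of Aurka, Bub1b, Cenpa, Tpx2 and Top2a, had r between -0.613 and -0.110. The second Aurkb probe set gave a difference between diets of 20.8 ± 36.6 millionths, opposite in sign to the main one, and was as low in control 1 (-72.7) as in collagen 1 (-66.7). How far a dim probe set reads its gene at all is not known, since no detection calls were used.

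**Figure D4:**
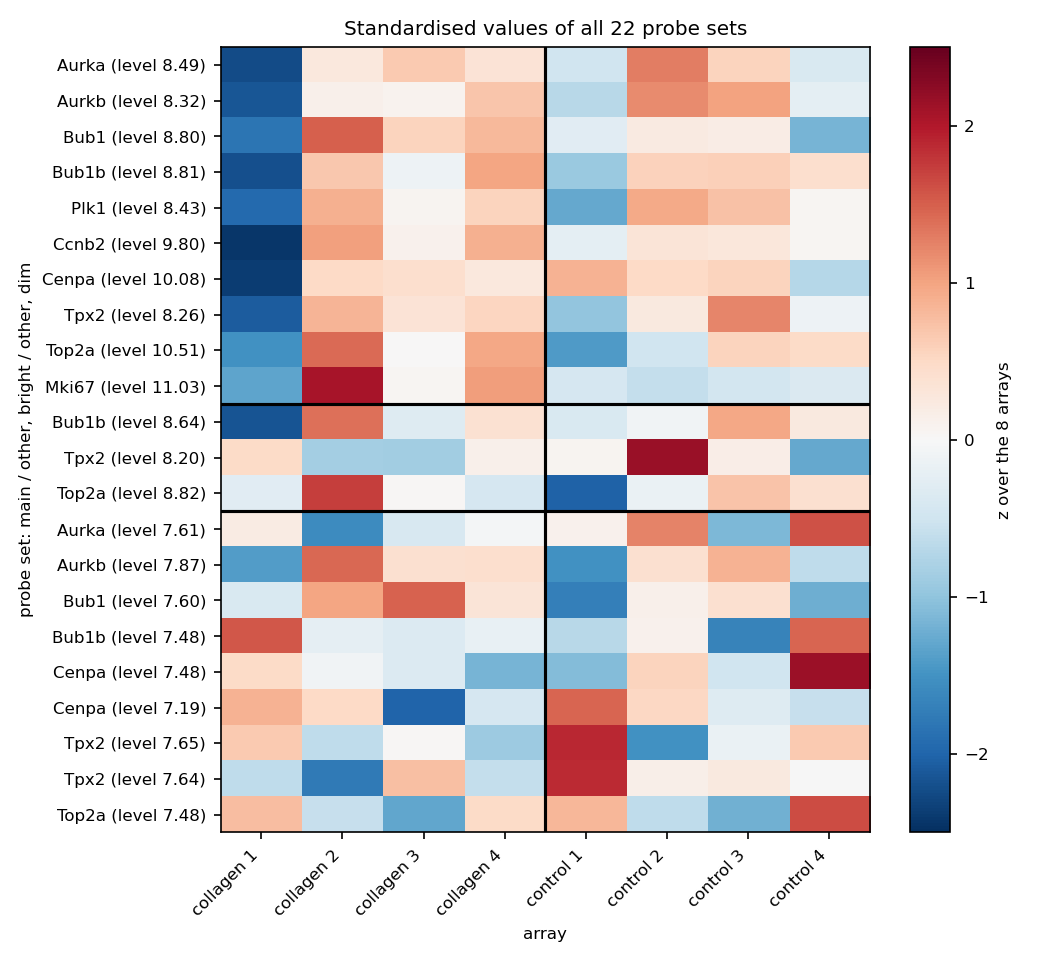
Rows are the 22 probe sets with their mean log2 level, grouped from top to bottom as main, other at or above the median level, and other under it; columns are the 4 collagen and the 4 control arrays; colour is the value standardised over the 8 arrays. Collagen 1 is blue in all 10 main rows, and among the 12 other rows it is clearly blue for the brighter Bub1b and the dim Aurkb probe set.

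Genes that work beside these 10 followed them in part. Of 71 other mitosis genes measured, 22 (31.0%) had r over 0.7 with the mean standardised profile of the 10 genes, against 6.57% of all genes, and their median r was 0.553. All 10 members had r over 0.7 with it, but they are part of that profile. Racgap1, which organises the cleavage furrow (0.968), Cdk1, the kinase that cyclin B activates (0.929), Kif20a, a motor of the midzone (0.893), Ndc80, which links kinetochores to microtubules (0.891), and Birc5, a partner of Aurkb (0.852), were named for their high r. Collagen 1 was the lowest array for 28 of the 71, beside 17.6% of all genes.

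Partners of a single complex did not always move together. Of the chromosomal passenger proteins that bind Aurkb, Birc5 had r = 0.852 and Incenp r = 0.594 with the profile, whereas Cdca8 had r = -0.373. Among checkpoint and anaphase genes the median r was 0.554 over 14 genes, with 0.844 for Ube2c, 0.807 for the separase Espl1, and -0.477 for Bub3, the partner of Bub1 and Bub1b. Wee1, the kinase that holds back mitosis, had the lowest r of the 71 genes (-0.789). The 8 condensin genes had a median r of 0.0612. Each of these values rests on 8 arrays that share the low collagen 1.

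The 71 other mitosis genes had a higher mean in collagen-fed mice in 51 cases and a lower one in 20, beside 47.1% of all genes lower. Their median difference was 1.43 millionths (0.366 SD), beside 0.0525 millionths (0.0517 SD) over all genes. Of the 71, 0 passed at adjusted p under 0.05 by limma. Under 0.05 unadjusted there was 1, the midzone motor Kif23 (1.80 ± 0.660 millionths, unadjusted p = 0.0319), beside 3.62% of all genes. The next by p were the kinetochore gene Nuf2 (1.74 ± 0.833 millionths) and the condensin gene Ncapg2 (8.78 ± 4.68). Without collagen 1, 12 were lower, beside 47.4% of all genes. Without collagen 2, 33 were lower, beside 46% of all genes. Collagen 2 was the highest array for 37 of the 71, beside 13.4% of all genes.

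DNA replication genes, which act earlier in the same cycle, were followed in the same way. Over 25 genes the median r was 0.148, and 3 genes (Tk1, Uhrf1 and Rfc3) had r over 0.7 (12%, beside 6.57% of all genes). Collagen 1 was the lowest array for 2, beside 17.6% of all genes. Their means were higher with collagen in 22 of 25 and lower in 3, beside 47.1% of all genes lower. The median difference was 0.929 SD. After quantile normalization 6 of 25 were lower, beside 34.4% of all genes. Of the 25, 6 were under 0.05 unadjusted by limma, beside 3.62% of all genes, and 0 at adjusted p under 0.05. The list was chosen with earlier results of these data known. Mcm4, a subunit of the replication helicase, differed by 4.65 ± 1.35 millionths, its partner Mcm5 by 8.35 ± 2.45 and Gins1 by 6.89 ± 2.14. Whether the mitotic and the replication genes differ in their response was not tested.

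**Figure D5:**
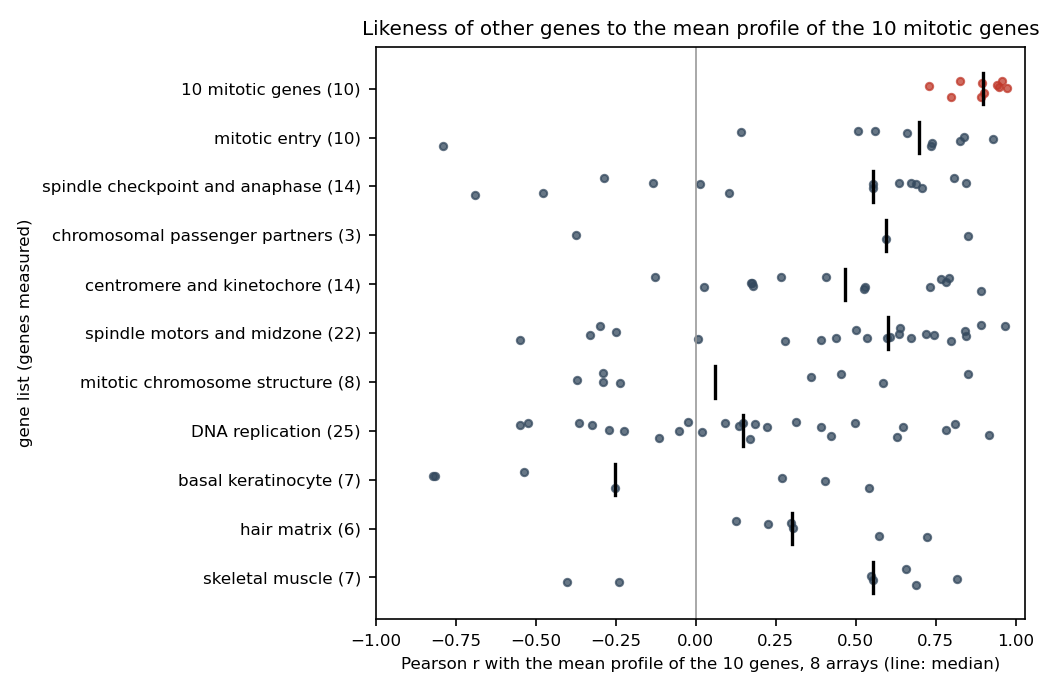
Each point is 1 gene, placed by Pearson's r over the 8 arrays between its main probe set and the mean standardised profile of the 10 mitotic genes, with a line at the median of each list and the number of genes measured in brackets. The 10 genes, which make up the profile, have a median of 0.898, the mitotic entry list 0.697 and the DNA replication list 0.148. The basal keratinocyte list has a median of -0.251, with genes from -0.820 to 0.543.

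The cycle inhibitors and the markers of cell types were set against the same profile. Among 7 CDK inhibitors, 6 were lower with collagen, beside 47.1% of all genes. Without collagen 1, 4 were lower and 3 higher, beside 47.4% of all genes lower. Cdkn1c had the smallest p (-978 ± 329 millionths, unadjusted p = 0.0224, adjusted p = 1 by limma). The 7 basal keratinocyte markers, of the layer where epidermal cells divide, had a median r of -0.251 with the profile, but went both ways. Krt5 (0.543), Itgb4 (0.403) and Krt14 (0.271) had a positive r. Krt15 (-0.820), Itga6 (-0.813), Trp63 (-0.536) and Col17a1 (-0.251) had a negative one. The mean standardised score of the 7 was highest in collagen 1 (0.878), against 0.0567 to 0.190 in the other collagen arrays and -0.556 to 0.199 in the control arrays. The 6 hair matrix markers had a median r of 0.301, with scores of -1.32 to 0.633 in the collagen and -1.35 to 1.33 in the control arrays. Of these, Shh (level 8.089) and Msx2 (8.094) lay under the median level of all probe sets (8.193), and 4 lay above it. Whether such a dim marker was present cannot be told, since detection is unknown. Over all cell type lists 3 markers had r over 0.7, the muscle actin Acta1 (0.816), the hair matrix factor Dlx3 (0.722) and the melanocyte antigen Mlana (0.712). The median r was 0.323 for suprabasal keratinocyte, 0.178 for fibroblast, 0.285 for leukocyte, 0.157 for melanocyte and 0.0291 for endothelial markers.

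Skeletal muscle markers had a median r of 0.555, and 5 of the 7 were lowest in collagen 1, beside 17.6% of all genes. The markers did not all agree. Their r ran from 0.548 (Ckm) to 0.816 (Acta1), apart from -0.402 for Myh4 and -0.239 for Actn3. Scores were -1.27 to 0.323 in the collagen and -0.585 to 1.35 in the control arrays. All 7 lay above the median level of all probe sets, from 9.988 (Myh4) to 13.99 (Acta1), though no detection calls were used. Their part in the low values of collagen 1 was not tested.

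The 1 gene most like each of the 10, among 11587 others at or above the median level, was 2310009B15Rik for Plk1 (r = 0.994), Pnpla6 for Bub1b (0.985), Camk1d for Tpx2 (0.978), Ptk7 for Aurkb (0.976) and Hoxa7 for Cenpa (0.975). It was Gpt for Mki67 (0.973), Eef2 for Bub1 (0.972), 2310010J17Rik for Ccnb2 (0.969), Psmd9 for Aurka (0.968) and Lcmt1 for Top2a (0.968). None of these is in the mitosis lists. Over 8 arrays, between 9 (Mki67) and 150 (Plk1) genes had r over 0.9 with a member.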

How the data were processed

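Biotin-labelled RNA made from 300 ng of total RNA of powdered frozen dorsal skin was hybridised to 1-colour arrays, per the labels' protocols. The authors deposited log2 values, a column per array; that they are log2 was judged from their span of 6.56 to 14.46. The submitters' processing notes name R 2.7.2, and how probes were summarised and arrays normalized is not stated there. No pair of arrays shared more than 53 values that were exactly equal as deposited.

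Of 45101 probe sets, 64 controls were left out. The platform annotation gave 1 symbol for 34945, several for 932 and none for 9160. Values were used as deposited and fitted over all 45037 probe sets by lmFit and eBayes of limma 3.58.1 (R 4.3.3), as the two-sided difference of collagen minus control without covariates (prior degrees of freedom 0.514), with Benjamini-Hochberg adjustment over all of them and a threshold of 0.05. Reading used data.table (version 1.17.8), and descriptions and figures were made in Python 3.11.15 with numpy 2.4.6, pandas 2.3.3, scipy 1.17.1 and matplotlib 3.10.9. The tests were tried on simulated data. For limma these had independent arrays and shifts far larger, in SD, than the difference of any member. That trial does not bear on differences as small as those of the members. Where Pearson's r carries a p-value, it is an exact two-sided permutation p.

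The members and lists were chosen with earlier results of these data known. Named genes are all members, up to 3 of a list by smallest p, and the 1 most like gene of each member; genes named by their r, and Krt1, Krt10, Pdgfra, Acta1, Dlx3 and Mlana, were chosen after their values were seen. Same-numbered arrays of the diets were compared by the correlation of their deviations from the diet means over all probe sets, which was 0.361, 0.0581, 0.2 and 0.0343 for numbers 1 to 4. Arrays of different numbers had values from -0.267 (collagen 1 and control 3) to 0.155 (collagen 4 and control 2). The 2 highest values of all were thus of same-numbered arrays, numbers 1 and 3. Over 0.1 in 2 of 4, the numbers were not taken to pair the arrays. Whether arrays of the same number shared a batch is not known. The symbols Ccnb1, Hjurp and Krt85 matched no probe set with 1 symbol.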

Additional observations from a re-analysis of the deposited data

Results flagged for a closer look

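In 44 groups of 4 arrays (22 probe sets, 2 diets) the gap between the extreme array and its neighbour, as a share of the group's range, was compared with Dixon's critical value for 4 values. Chance flags about 1 in 20 such groups, or 2.2 of 44, and 5 were found. The groups share the same 8 arrays, and the main probe sets varied together (median r 0.801). The 44 are therefore not independent, and 5 cannot be weighed against 2.2. The genes were also chosen with a direction known that rests on the low collagen 1. Collagen 1 was the lowest of its group for the main probe sets of Aurka (share 0.867) and Cenpa (0.913), at -6.46 and -20.7 millionths of 1 log2 unit from the 8-array mean. It was the highest for the dim Bub1b probe set of level 7.48 (0.919, at 2.08 millionths), opposite to the main Bub1b probe set. Control 1 was the lowest of its group for the main Bub1b probe set (0.877, at -38.4 millionths) and the highest for a dim Tpx2 probe set of level 7.64 (0.869, at 6.81 millionths).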

How the results depend on the processing

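Differences below are collagen minus control in millionths of 1 log2 unit, and no member passed at adjusted p under 0.05 by limma in any setting (lowest adjusted p 0.618). After quantile normalization 3 members were lower (Plk1 by only -0.0486), 1 was under 0.05 unadjusted by limma and 6 DNA replication genes were lower. The median r was 0.164 over the 36 member pairs left, since Mki67 took the same value on all arrays. Aurka (7.24), Aurkb (42.7), Bub1b (119) and Tpx2 (68.5) changed sign. Median centring moves the differences of all genes alike, since array medians differed by -55.2 millionths between diets, and so bears on no single gene; it left 0 members, 0 other mitosis genes and 0 DNA replication genes lower and gave a median r of 0.981; Aurka (53.8), Aurkb (39.3), Bub1b (41.7), Plk1 (27.25), Ccnb2 (49.5), Cenpa (49.9) and Tpx2 (50.5) changed sign. Spearman's rho had a median of 0.619. The sign also differed in other probe sets of Aurkb (20.8), Bub1b (0.541) and Top2a (-0.2125). With each array left out in turn, members lower numbered 1 to 7, members under 0.05 unadjusted 0 to 2, members without overlap 0 to 2, other mitosis genes lower 12 to 33 (33 without collagen 2), DNA replication genes lower 1 to 4, and the median r ran from 0.499 to 0.855. The differences ran from -2.25 to 0.534 for Aurka, -24.4 to -0.21 for Aurkb, 1.58 to 17.7 for Bub1, -29.3 to 14.4 for Bub1b, -87.1 to 49.9 for Plk1 (7.51 without control 2), -16.3 to 16.2 for Ccnb2, -8.19 to 0.778 for Cenpa, -14.7 to 13.9 for Tpx2, 0.238 to 6.27 for Top2a and 6.98 to 27.7 for Mki67. Both settings that follow were chosen after seeing the data. Without collagen 1 and collagen 2 together the median r was 0.562. With the Gapdh reading as a covariate, 1 member was lower, 1 was under 0.05 unadjusted (Top2a, 7.71), 12 other mitosis genes and 1 DNA replication gene were lower, and Aurka (0.591), Aurkb (2.375), Bub1b (20.5), Plk1 (81.8), Ccnb2 (13.7) and Tpx2 (17.8) changed sign. Apart from median centring, the causes of these changes were not tested. For the covariate no share of all genes was counted, so its counts cannot be called particular to these genes. With the replicate number as a block, 7 members were lower and 0 under 0.05 unadjusted, as without it (Aurkb -15.9), and no call changed. An intensity trend and bright probe sets alone kept all 10 signs. Signal over background is unknown, so how dim probe sets are limited by it is not known.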
